A study of Mus musculus with 2 samples.

Results

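The CpG cytosines of the mitochondrial genome (mtDNA) were the cytosines on chrM that both deposited libraries covered with 5 reads or more, joined on their position. There were 459 such cytosines among 2654195 shared CpG cytosines in all, 224 on the plus strand and 235 on the minus strand. The libraries came from liver of male mice aged 3 months, whose strain label is C57BL/6. One was wild type (WT), and the other carried the YP187/188AA knock-in (KI) in Uhrf1, which changes the tandem Tudor domain that binds H3K9-methylated histone tails; its genotype label reads "knock out" while its title reads KI, and the study describes the KI mice as homozygous. Each library was reduced representation bisulfite sequencing (RRBS) of DNA pooled from 3 mice, with 1 library per genotype. The tests below therefore compare these libraries by their reads and not the genotypes, and every interval covers counting error only, since PCR copies of a molecule are counted as separate reads and neighbouring CpGs share reads. Summed reads are coverage added over cytosines, so a read that spans several CpGs is counted at each of them.

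mtDNA is a circle kept in many copies per cell, and liver is rich in it. It encodes protein subunits of oxidative phosphorylation together with the rRNAs and tRNAs needed to translate them, and its control region holds the promoters and the origin of heavy-strand replication. It carries no histones, so it has no H3K9 methylation for Uhrf1 to bind. In bisulfite sequencing an unmethylated cytosine is read as T, and a sequence with little methylation shows the residue of reads left as C.

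The mm9 sequence of mtDNA is 16299 bp long, with 287 CpGs or 574 cytosines, and its annotation lists 37 genes (13 protein-coding, 2 rRNA and 22 tRNA). The plus strand of the reference is the light strand, of 24.4% C and 12.3% G. RRBS begins at CCGG, the site of the enzyme MspI, which cuts whether or not the inner CpG is methylated. mtDNA holds 11 of these sites. The stretch most often read lies in mt-Co1, subunit I of cytochrome c oxidase, between a pair of MspI sites at chrM:6112-6277 (mm9, plus strand). It is shown with its CpGs in capitals because it carried 40.2% of the summed mitochondrial reads in WT:

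mt-Co1 fragment: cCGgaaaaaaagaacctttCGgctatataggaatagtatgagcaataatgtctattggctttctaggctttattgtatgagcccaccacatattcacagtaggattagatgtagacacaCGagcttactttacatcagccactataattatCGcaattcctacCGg

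The control region, chrM:15423-16299, has 1 MspI site. The sequence around it, chrM:15682-15775 on the plus strand, is shown in the same way because the deepest CpGs outside mt-Co1 lie there:

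control region: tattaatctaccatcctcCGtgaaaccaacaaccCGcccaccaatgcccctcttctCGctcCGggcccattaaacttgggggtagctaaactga

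Mitochondrial cytosines were read far more deeply than nuclear ones. The typical (median) mitochondrial cytosine had 588 reads in the WT library and 626 in the KI library, against 37 in each for the other shared CpGs, a ratio of 15.9 in WT and 16.9 in KI. Together mtDNA took 0.479% of all read coverage in WT and 0.527% in KI, 1.10 times as much, from 919471 and 911784 reads over its listed CpGs. With 1 library per genotype this difference has no replicate check, and mtDNA copy number cannot be told apart from library making. Depth at the 459 cytosines ran from 9 to 39933 reads in WT and from 7 to 42671 in KI, and the same cytosines were deep in both libraries (Spearman's rho = 0.993 across cytosines, which share fragments and reads).

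Depth was set out around the MspI sites. Upstream on a cytosine's own strand is the side from which a read would run inward from a site. By the nearest site on that side, cytosines 1 to 50 bp away had median depths of 3308 reads (WT) and 3140 (KI). Those more than 500 bp away had 407 and 454. By the nearest site on the other side, cytosines 1 to 50 bp away had 1668 and 2279. Where the reads of each cytosine start was not tested. The 10 cytosines of the mt-Co1 fragment had 34579 to 42671 reads, and the 6 inside it 35152 to 36416 in WT. The neighbouring fragment of 116 bp (chrM:6275-6390) was 1.58 times deeper in KI than in WT over its 2 inner cytosines. The 70 bp fragment in mt-Nd1 (chrM:3333-3402), a subunit of complex I, was much shallower, at median depths of 502 (WT) and 442.5 (KI).

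**Figure D1:**
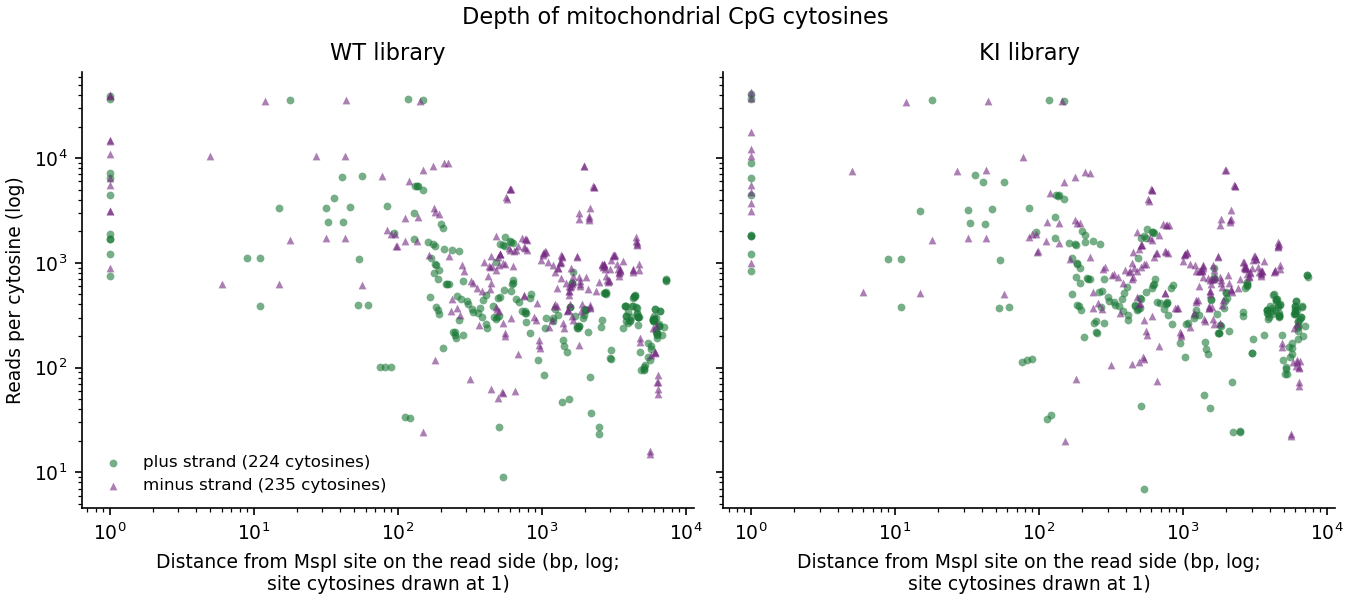
Reads per mitochondrial CpG cytosine (log axis) against the distance in bp from the nearest MspI site upstream on its own strand (log axis), for the WT and KI libraries. Circles are the 224 plus-strand cytosines, triangles the 235 minus-strand cytosines, and cytosines of the sites themselves are drawn at 1. Outside the sites themselves, median depth is highest 1 to 50 bp from that site, at 3308 (WT) and 3140 (KI). The deepest single cytosine there, with 36416 WT reads, is 118 bp away. Cytosines over 500 bp away still have median depths of 407 (WT) and 454 (KI).

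The minus strand was read more deeply than the plus strand. In WT its median was 898 reads against 356.5, and it carried 60.8% of the summed reads. In KI it carried 59.6%, at a median of 865. Where both cytosines of a CpG were shared, the minus-strand one was deeper in 169 of 224 CpGs in WT and 164 in KI, and the median of minus over plus was 2.41 and 2.23. The strands differed by class of gene. Outside MspI sites, the minus strand was deeper at 122 of 125 CpGs of protein-coding genes in each library (median ratio 3.41 in WT, 2.77 in KI) and at 15 of 15 in the control region, where plus-strand medians of 155 and 197 reads faced minus-strand medians of 4082 and 3931. In the rRNA genes mt-Rnr1 and mt-Rnr2, which encode the small and large ribosomal RNAs, it was deeper at only 12 of 57 in WT and 6 of 57 in KI, with ratios of 0.554 and 0.612. At CpGs over 500 bp from MspI sites on both sides, the minus strand was deeper at 88 of 104 (WT) and 89 (KI). The median ratios there were 2.92 and 2.45. Fragment position moves with the ratios of the gene classes and its part in them was not tested.

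Reads left as C were rare. The sources used here give no bisulfite conversion rate. Methylated cytosines therefore cannot be told apart from unconverted or misread ones, and every read left as C is called methylated below. Summed over the 459 cytosines, 1514 of 919436 reads were methylated in WT, or 0.165% (95% exact Clopper-Pearson interval 0.157 to 0.173), and 1520 of 911743 in KI, or 0.167% (0.158 to 0.175). The difference between the libraries, 0.00205 points, did not pass Fisher's exact test (two-sided p = 0.744). At 281 cytosines in WT and 296 in KI no read was methylated. The mean over cytosines, each weighted equally, was 0.0863% in WT and 0.0694% in KI, a difference of -0.0169 points with a 95% counting interval of -0.0998 to 0.0659.

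Much of the residue lay at the MspI sites. The 20 measured cytosines of CCGG sites had 0.428% methylated reads in WT (0.402 to 0.455) and 0.451% in KI (0.425 to 0.479), and the other 439 had 0.0716% (0.0653 to 0.0782) and 0.0627% (0.0569 to 0.0690). Fisher's exact test of this difference gave p = 2.28e-253 in WT and reached the smallest p written, 1e-300, in KI. The CCGG cytosines took 26.1% of the reads but 67.9% of the methylated reads in WT, and 26.7% and 72.4% in KI. Of the 18 CCGG cytosines with other CpGs within 100 bp, 15 were above the summed level of those neighbours in each library. CCGG cytosines ranged from 0% to 1.04% in WT and from 0% to 0.951% in KI. The size of this difference rested in part on the mt-Co1 fragment, whose 4 CCGG cytosines held 791 of the 1028 methylated CCGG reads in WT. Without that fragment the CCGG level was 0.280% in WT and 0.316% in KI, 3.56 and 4.77 times that of the other cytosines rather than 5.98 and 7.20 times. Without cytosines under copies of at least 95% identity it was 0.236% and 0.222%, or 3.21 and 3.77 times. This comparison was added after the data were seen.

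**Figure D2:**
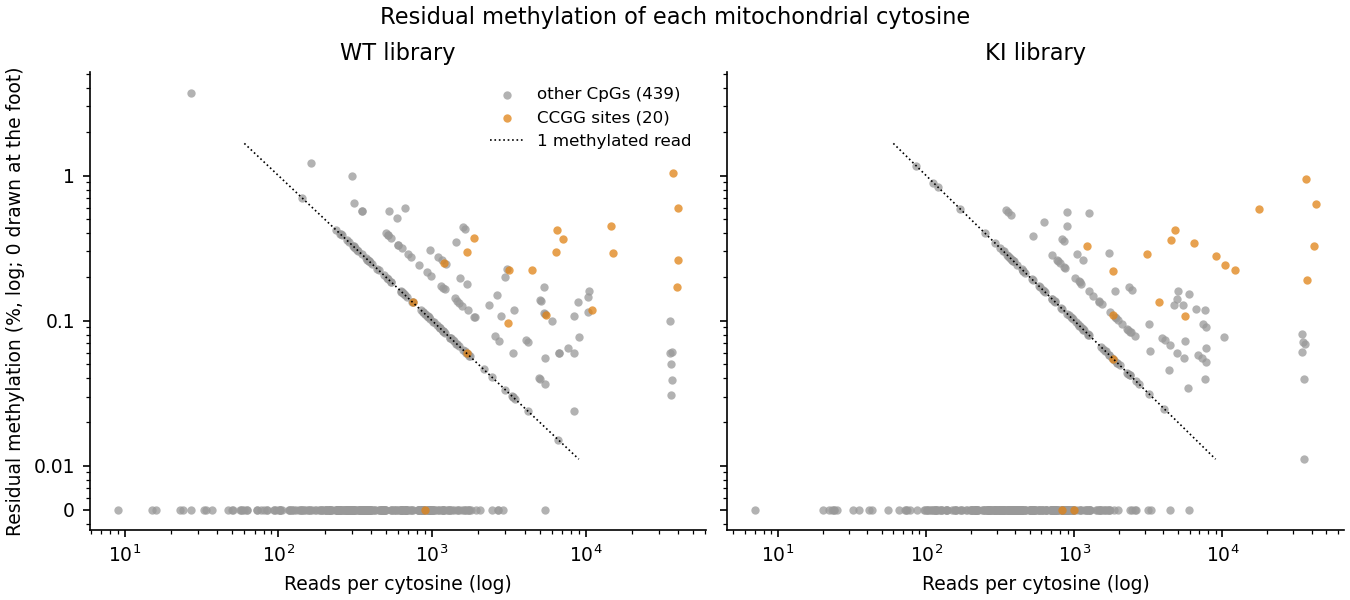
Residual methylation of each mitochondrial cytosine (percent, log axis, with 0 drawn at the foot) against its reads (log axis) in the WT and KI libraries; orange points are the 20 CCGG cytosines, grey points the other 439, and the dotted line is the level that 1 methylated read gives. The highest CCGG cytosine in WT is at 1.04% on 36932 reads, and the 6 cytosines inside the deepest fragment, at 35152 to 36416 reads, have 0.0565% together.

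The ends of the mt-Co1 fragment and its inside could be compared at like depth. Its 6 inner cytosines held 121 methylated among 214137 WT reads, or 0.0565%, and 117 of 211723 in KI, or 0.0553%. The deepest of these, chrM:6231 on the plus strand, had 22 of 36416 (0.0604%) and 25 of 36206 (0.0690%). At the left end, the plus-strand cytosine at chrM:6113 had 384 of 36932 reads methylated in WT (1.04%) and 351 of 36899 in KI (0.951%), and the minus-strand cytosine at chrM:6114 had 0.260% and 0.189%. At the right end, the minus-strand cytosine at chrM:6276 had 0.599% in WT and 0.640% in KI, and the plus-strand cytosine at chrM:6275 had 0.169% and 0.330%. The next MspI site to the right had 65 of 14540 reads methylated in WT (0.447%) and 104 of 17548 in KI (0.593%) on its minus strand, at chrM:6390. At both ends of the deepest fragment the higher of the pair was the cytosine at which this fragment's reads would begin. The lower was the one that end repair would fill in after MspI cutting. Reads of the neighbouring fragment would begin at that lower cytosine. Neither read starts nor fill-in was tested. Above 10000 reads the deposited percentages fix methylated reads only to within about 2 reads.

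The sign of several differences between regions turned on these sites. Over all cytosines the plus strand had 0.182% methylated reads and the minus strand 0.153% in WT (Fisher's exact p = 0.000897), and 0.187% against 0.153% in KI (p = 0.000119). Without CCGG cytosines the minus strand was higher by the same exact test, 0.0836% against 0.0521% in WT (p = 1.74e-06) and 0.0721% against 0.0484% in KI (p = 0.000139). The control region (32 cytosines) had 0.149% in WT and 0.110% in KI against 0.166% and 0.171% elsewhere, by Fisher's exact test p = 0.273 and 8.07e-05. Without CCGG cytosines it was the higher by the same exact test, 0.116% against 0.0670% in WT (p = 4.77e-05) and 0.0875% against 0.0605% in KI (p = 0.0214). Most reads of the control region were on the minus strand, and the part of strand in that difference was not tested. Without cytosines under nuclear copies of 95% identity, the control region kept 6 cytosines. Their level was 0.073% against 0.088% elsewhere in WT, and 0% against 0.073% in KI. Neither difference passed Fisher's exact test. These sets are unlike, since the cytosines elsewhere included 8 of CCGG sites and the 6 of the control region included none. All 276 cytosines outside both CCGG sites and such copies had 0.0734% in WT and 0.0588% in KI. The deepest fragment, which lies outside the control region, held 60.2% of all summed methylated mitochondrial reads in WT and 62.4% in KI.

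**Figure D3:**
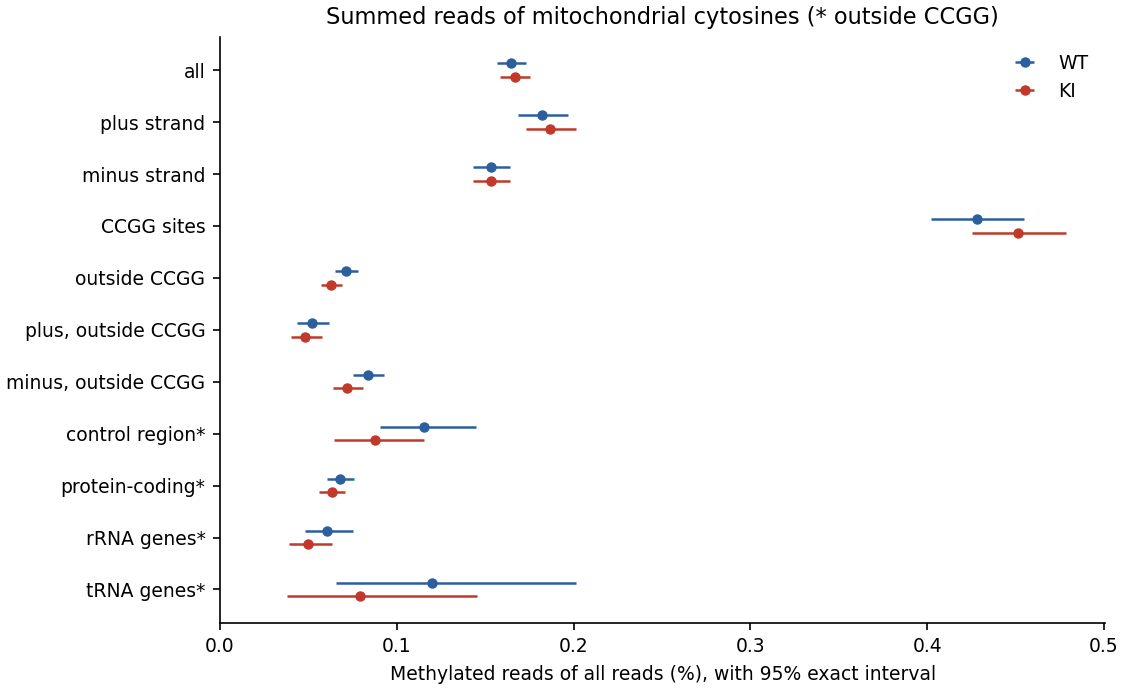
Methylated reads as a percentage of all reads, summed over sets of mitochondrial cytosines, with 95% exact intervals, for the WT (blue) and KI (red) libraries; sets marked * leave out CCGG cytosines. CCGG sites stand at 0.428% in WT and 0.451% in KI, and every other set lies below 0.2%.

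The control region was thus read mainly on its minus strand. The 15 minus-strand cytosines outside CCGG held 71 of the 74 methylated reads in WT and 48 of 49 in KI, with 94.4% and 92.7% of all reads there. Their level was 0.117% and 0.0925%, and that of the 15 plus-strand ones was 0.0838% and 0.0244%, from 3 methylated reads and 1. The minus-strand cytosine of its MspI site, chrM:15744, had 44 methylated among 15000 WT reads (0.293%) and 27 of 12075 in KI (0.224%), and the plus-strand one, chrM:15743, had 1 of 746 and 0 of 832. The highest single level in mtDNA was here, at chrM:16251 on the plus strand, but it was 1 methylated read of 27 in WT and 0 of 43 in KI. The origin of heavy-strand replication lies in this region, and a part of that in its strand depths was not tested.

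Among genes, mt-Co1 held 54 of its 60 CpG cytosines in the shared set. It had 504444 summed reads in WT and 507325 in KI, 54.9% and 55.6% of those of mtDNA. Outside CCGG sites its level was 0.0622% in WT and 0.0625% in KI. Of the rRNA genes, mt-Rnr1 stood at 0.0529% and 0.0860% and mt-Rnr2 at 0.0621% and 0.0422%. Genes for subunits of complex I with at least 1000 reads were spread from 0.0511% (mt-Nd5) to 0.137% (mt-Nd6) in WT. In KI they ran from 0.0136% (mt-Nd2) to 0.0662% (mt-Nd1). Some of these ends rest on few methylated reads. mt-Nd6 had 4 of 2921 in WT (0.0373 to 0.350%), and mt-Nd2 had 1 of 7381 in KI (0.000343 to 0.0755%). mt-Cytb, which encodes cytochrome b of complex III, had 0.0557% and 0.0919%. The tRNA genes, of which 8 of 22 held a shared CpG, together showed 14 methylated among 11670 WT reads and 10 among 12623 KI reads, and 6 cytosines between genes had 0 of 1404 and 0 of 1354, for which a limit of 3 counts is 0.214% and 0.222%.

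mt-Nd4 stood out when the libraries were set side by side by gene. Outside CCGG sites it showed 22 methylated among 16245 WT reads and 5 among 16328 KI reads, 0.135% against 0.0306% (Fisher's exact p = 0.000883, adjusted p = 0.00795 over 9 genes), and none of the other 8 passed, the next being mt-Rnr2 at an adjusted p of 0.185. The difference lay in 1 stretch of 87 bp, chrM:11117-11203, whose 10 cytosines are near enough to share reads and held 20 of the 22 methylated reads in WT and 4 of the 5 in KI. The other 14 cytosines of the gene had 2 of 5706 reads methylated in WT and 1 of 5825 in KI. The comparison was added after the data were seen. For all cytosines outside CCGG the KI level was lower by 0.0088 points, with an unadjusted p of 0.0498 and an adjusted p of 0.149 over 3 classes by Fisher's exact test. No class among control region, protein-coding, rRNA, tRNA and intergenic cytosines passed, the smallest unadjusted p being 0.148.

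**Figure D4:**
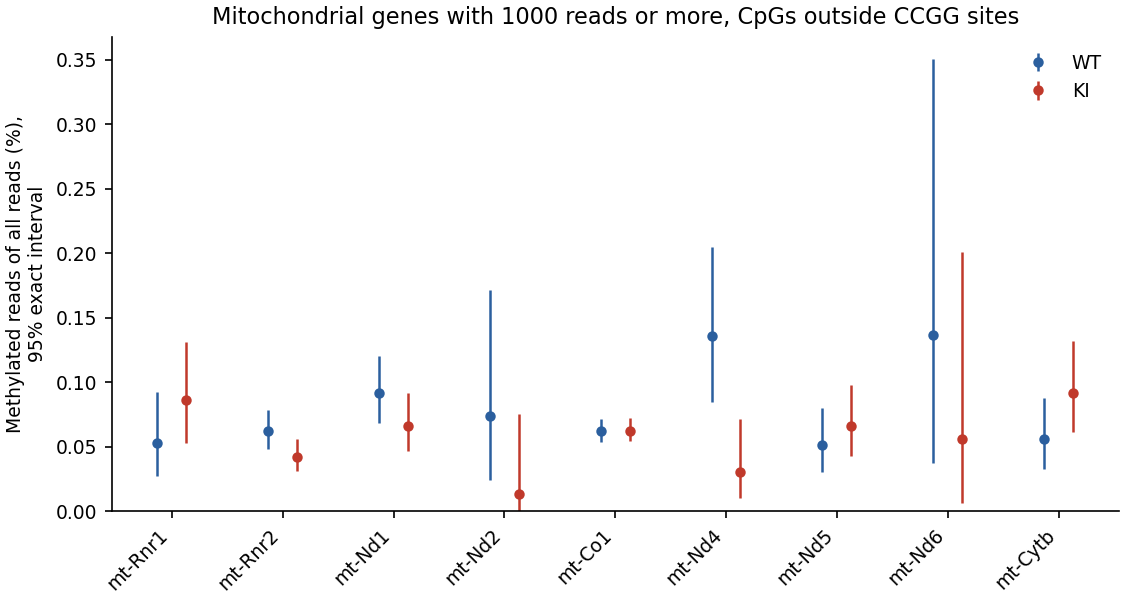
Methylated reads as a percentage of all reads at CpGs outside CCGG sites in the mitochondrial rRNA and protein-coding genes with at least 1000 reads in each library, with 95% exact intervals, for WT (blue) and KI (red). The WT value of mt-Nd6 is 0.137% with a wide interval, and mt-Nd4 is 0.135% in WT and 0.0306% in KI.

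Singly, 1 of the 459 cytosines passed Fisher's exact test with the Benjamini-Hochberg adjustment over all 2654195 CpGs, or 0.218%, where 2.98% of all CpGs passed. In the direction of that one, higher in KI, 0.115% of all CpGs passed. It was the plus-strand cytosine at chrM:6275 in mt-Co1 described above, with 66 of 38955 reads methylated in WT and 136 of 41258 in KI (exact p = 5.54e-06, adjusted p = 0.000630). Its reads can come from both fragments that meet at the site. Reads of the fragment on its other side would begin at this cytosine. That fragment was 1.58 times deeper in KI, and the part of that in the difference was not tested. The next by exact p, on the minus strand, were chrM:14682 in mt-Cytb, with 0 of 1286 and 7 of 1260 (adjusted p = 0.149), and chrM:11118 in mt-Nd4, with 7 of 1583 and 0 of 1517 (adjusted p = 0.246). In all 119 cytosines were higher in KI, 122 lower and 218 equal, and 8 had an unadjusted p under 0.05. Outside CCGG sites, the level of a cytosine in WT was barely related to its level in KI (rho = 0.141 over 225 cytosines with at least 500 reads, neighbours sharing reads), while it was more so for the 20 CCGG cytosines (rho = 0.690).

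Copies of mtDNA in the nuclear genome gave the same sequence a different surrounding. An alignment search found 47 nuclear copies of at least 80% identity and 100 bp, of which 5 held shared CpGs, 35 cytosines in all. Their methylated reads were 45.5% of all in WT (43.4 to 47.6) and 43.3% in KI (41.1 to 45.5), against 0.172% and 0.178% for the 331 mitochondrial cytosines that lie under any of the 47 copies, and Fisher's exact test reached the smallest p written, 1e-300, in each library. Over the CpGs conserved on both sides the mitochondrial levels were 0.251% and 0.263%, on 48 cytosines. The nuclear value is mainly that of 1 copy, on chromosome 2, which gave 2013 of the 2144 reads in WT and 1810 of 1983 in KI and stood at 46.1% and 45.1%. The other 4 copies had 8 to 59 reads in WT, with levels from 12.5% to 72.7%. Of 33 pairs in which the CpG was conserved, the nuclear one was higher in 23 in WT and 24 in KI, and the greatest mitochondrial level in any was 1.04%. In the remaining pairs the nuclear cytosine was at 0%, on at most 27 reads in WT and 29 in KI. Some of these pairs were at 0% in mtDNA as well, and some lay in the chromosome 2 copy. None of the 35 nuclear cytosines passed the single-CpG test between the libraries.

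The mt-Co1 fragment has a copy on chromosome 2 (chr2:22442808-22446054, 97.4% identical over 3260 bp). The stretch around the fragment's right end and the aligned part of that copy are the same in these bases, with CpGs in capitals, shown because the reads that tell them apart rest on differences elsewhere:

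mtDNA chrM:6255-6296, plus strand: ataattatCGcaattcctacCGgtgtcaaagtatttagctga

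chr2:22444199-22444240, minus strand: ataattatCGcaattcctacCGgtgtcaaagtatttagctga

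The widest gap in WT, chosen after the values were seen, was at chrM:6132 on the minus strand. There mtDNA was methylated in 0.0597% of 35152 WT reads and 0.0605% of 34732 KI reads, and the aligned nuclear cytosine, chr2:22444363, had 96.2% of 132 and 87.4% of 111. The other cytosine of that nuclear CpG, chr2:22444364, stood lower, at 51.7% of 327 WT reads and 54.7% of 274 KI reads. The nuclear cytosines aligned to chrM:6263 and chrM:6264 also differed, with 44.3% of 325 and 88.9% of 135 WT reads. The level of the copy thus depended on the strand, and the reason was not tested. At the left MspI end the nuclear cytosines aligned to chrM:6113 and chrM:6114 had 53.4% and 2.40% in WT, and at the right end those aligned to chrM:6276 and chrM:6275 had 88.9% and 6.23%. In mtDNA and in the copy, the cytosine at which the fragment's reads would begin was higher than the other of the pair at both ends.

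**Figure D5:**
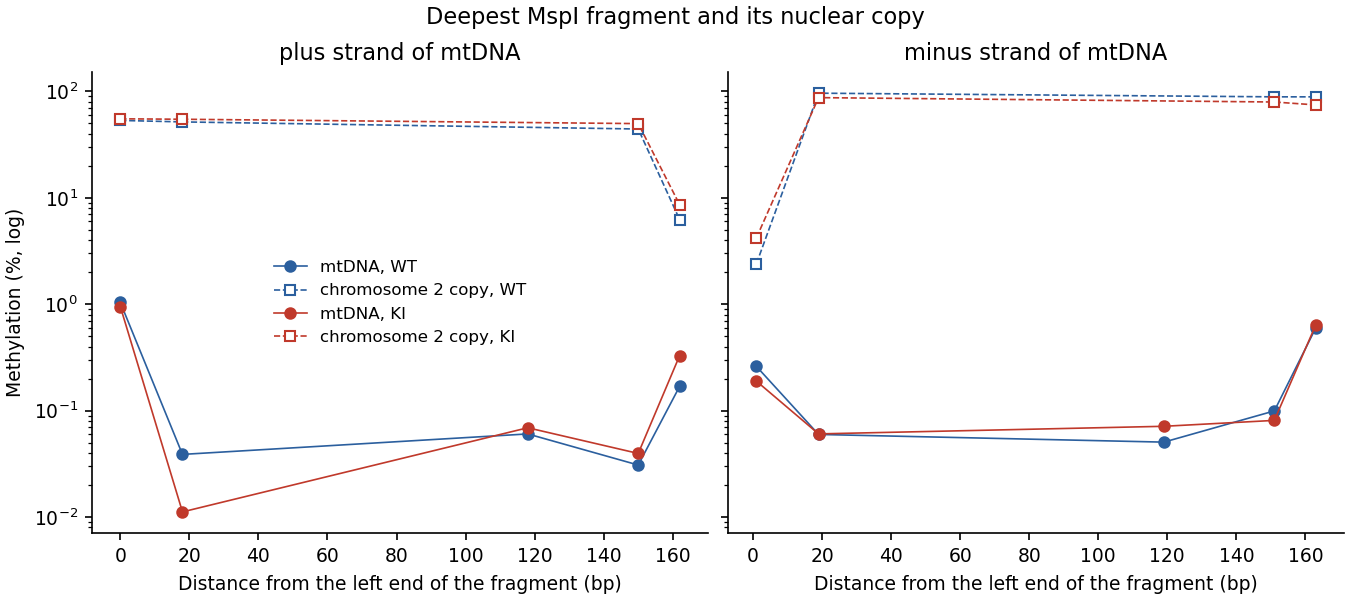
Methylation (percent, log axis) of the CpG cytosines of the deepest mitochondrial fragment (filled circles) and of the aligned chromosome 2 copy (open squares), for WT (blue) and KI (red), against distance in bp from the fragment's left end; the left panel is the plus strand of mtDNA and the right panel the minus strand. The mitochondrial cytosines lie at 1.04% or below, and the nuclear ones reach 96.2%.

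Another copy, on chromosome 12 (chr12:98299638-98300002, 99.7% identical), spans the MspI site of the control region, and a further copy on the same chromosome (chr12:114172506-114172720, 82.8%) has diverged there. Their sequences over the site, with CpGs in capitals, are shown beside mtDNA for that reason:

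mtDNA chrM:15723-15764, plus strand: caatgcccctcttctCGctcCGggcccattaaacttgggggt

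chr12:98299686-98299727, plus strand: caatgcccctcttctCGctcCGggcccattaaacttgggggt

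chr12:114172657-114172698, plus strand: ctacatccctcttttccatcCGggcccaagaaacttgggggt

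At chrM:15744 on the minus strand, with 0.293% in WT and 0.224% in KI, the close copy had 22.2% of 9 WT reads and 0% of 13 KI reads, and the diverged one had 62.5% of 8 and 66.7% of 9. Depth in the copies was low, with a median of 12 reads per cytosine in WT and 19 in KI.

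The mitochondrial cytosines that were not measured lay under near-identical copies. Of the 574, 100 were listed in neither library and 15 more were listed but not shared, and all of these lie under a copy of at least 95% identity; only reads that map to 1 place were kept. Another 175 cytosines under such copies were shared, 62 of them under copies of at least 99%. MspI sites are also sparse beyond mt-Co1, where fragments of 2014 bp and 7344 bp follow each other, and the part of each in what was measured was not tested. mt-Co2, mt-Atp8 and mt-Atp6, for another oxidase subunit and parts of the ATP synthase, lie under a copy on chromosome 1 (chr1:24618374-24623027, 99.9% identical) and had no shared CpG, and that copy had none either. mt-Co3, also under it, had 5 cytosines with 0 methylated among 347 WT reads and 0 among 452 KI reads, for which a limit of 3 counts is 0.865% and 0.664%.

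Nuclear start sites give another level for comparison. Within 200 bp of the 5′ end of protein-coding genes, 263982 cytosines had 6.48% methylated reads in WT and 5.73% in KI, above mtDNA by Fisher's exact test in each library (p = 1e-300, the smallest written). That total is carried by few of them, since 86.4% in WT and 86.5% in KI had no methylated read at medians of 24 and 25 reads. Among the 849 outside CCGG that both libraries covered with 200 reads or more, 40.6% were under 1% in WT and 40.7% in KI. The 377 mitochondrial cytosines of that depth reached at most 1% in WT and 0.576% in KI. Those 849 were chosen for depth from 229765 start-site cytosines outside CCGG and do not stand for them. Their median levels were 2.71% and 3.10%, while 87.8% and 87.9% of the 229765 had no methylated read.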

How the data were processed

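RRBS of pooled liver DNA was made by the authors from 1 WT and 1 KI library, and their reads were mapped to mm9 with Bismark, keeping uniquely mapped reads, per the labels and the study's methods; trimming and the library kit are not given in the sources used here. The deposited files give for each CpG cytosine the coverage as a count of reads and the percent of C and of T to 2 decimals, from which methylated reads were recovered by rounding. All positions are listed on the forward strand, so strand was read from mm9, whose chrM sequence has a CpG at every listed position.

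Both files were joined on position at a minimum of 5 reads. Levels were compared on summed reads and per CpG by the two-sided Fisher's exact test. For single CpGs the p-values were adjusted by Benjamini-Hochberg across every shared CpG (threshold 0.05), and for genes and classes across the family. Genes with under 1000 reads in a library were left out of that family. Intervals are exact Clopper-Pearson intervals at 95%, and a summed count of 0 is given a limit of 3 counts. Nuclear copies came from blastn 2.17.0 (e-value 1e-10, at least 80% identity and 100 bp), sequences from samtools 1.23.1, and tests from scipy 1.17.1 and numpy 2.4.6. The Fisher code was tested on simulated data. CpGs named singly were the 5 deepest, the 5 with most methylated reads, the control-region CpGs and the 3 of lowest p; those aligned to nuclear copies were named after their values were seen. Genes named were the rRNA and protein-coding genes with tRNAs as a group, and copies were the 3 longest with at least 3 shared CpGs. The cytosines, lists and comparisons were chosen with earlier results of these data known.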

Additional observations from a re-analysis of the deposited data

How the results depend on the processing

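There was 1 library per genotype, so no replicate could be left out, and no paired analysis was possible because each group has 1 library. Coverage minimums of 1, 10 and 20 reads changed no call. Leaving out CCGG cytosines turned the difference between KI and WT on summed reads from 0.00205 to -0.00881 points, the strand difference (minus minus plus) from -0.0290 to 0.0315 in WT and from -0.0337 to 0.0237 in KI, and that of the control region from the rest from -0.0171 to 0.0485 in WT and from -0.0611 to 0.0270 in KI. Leaving out the deepest fragment, chosen after seeing the data, gave -0.00388, 0.0275, 0.0289, 0.0463 and 0.00536 for the same 5 differences. Leaving out cytosines under copies of 95% identity gave -0.0149 for KI against WT (unadjusted Fisher's exact p = 0.0487). For the strands it gave 0.0284 in WT (exact p = 0.0124) and 0.00416 in KI (exact p = 0.726), so the strand difference in KI no longer passed. It gave -0.0731 for the control region in KI (exact p = 1, with 6 cytosines left in it) and -0.0142 for CCGG cytosines between the libraries, from 0.0234. The single CpG called became 0 with a change over 25 points and 8 at an unadjusted p under 0.05. The remaining 52 alternatives kept direction and call, though the CCGG excess of 0.357 points in WT and 0.389 in KI fell to 0.201 and 0.249 without the deepest fragment and to 0.162 and 0.163 without cytosines under copies of 95% identity. The causes were not tested.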
